A study of Mus musculus with 15 samples.

Results

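Nuclear genes of oxidative phosphorylation were followed in the submandibular glands of mice with and without a Sjögren's syndrome-like disease. The members were all genes whose deposited KEGG annotation named the pathway oxidative phosphorylation, leaving out genes of the mitochondrial genome and the vacuolar ATPase genes named Atp6v. This rule took 95 of 32479 annotated genes, from a pathway entry of 130 genes that also held 13 mitochondrial genome genes and 22 Atp6v genes. Controls were 5 ICR mice without treatment, from an outbred stock. Model mice were 5 NOD/LTJ mice without treatment, an inbred strain with autoimmune sialadenitis. The SJQYD mice were 5 more of the NOD/LTJ strain, treated with an agent given in the labels as SJQYD and no further. All 15 carried the genotype label WT, and the labels give no age, sex, dose or duration. Control and model mice differ in strain and in disease, which cannot be told apart in these groups.

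The respiratory chain passes electrons from NADH (complex I) or succinate (complex II) through ubiquinone, complex III and cytochrome c to oxygen at complex IV. Complexes I, III and IV pump protons across the inner mitochondrial membrane, and ATP synthase (complex V) uses the proton gradient to make ATP. Most subunits are encoded in the nucleus and imported, and each pumping complex and ATP synthase also needs subunits from the mitochondrial genome. In salivary glands, striated duct cells are rich in mitochondria and spend ATP on ion transport.

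By complex, the members comprised 39 genes of complex I, 4 of complex II, 9 of complex III, 17 of complex IV and 15 of complex V. The other members were 4 genes for heme A synthesis and copper delivery to complex IV, 3 inorganic pyrophosphatases, 2 vacuolar pump genes (Tcirg1 and Atp6ap1) and the 2 gastric and colonic proton pumps Atp4a and Atp12a. The assignment followed gene symbols, and Ndufa4 was kept with complex I, where the pathway lists it, although it is now regarded as a subunit of complex IV. Of the 95 members, 91 passed the filter on low counts. Cox6a2, Cox7b2, Atp12a and Atp4a did not. These 4 had no count in any control library and at most 7 counts in a model library and 15 in an SJQYD library. In a control library, a count of 0 allows up to 0.0540 to 0.0840 CPM (counts scaled to the normalised library size), the worth of 3 counts.

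Libraries held 39510018 to 68694263 counts. Mucl2, a secreted mucin-like protein, alone took 15.5% to 53.8% of them. The members together took 0.317% to 0.486% of the counts in control, 0.413% to 0.628% in model and 0.428% to 0.743% in SJQYD libraries. All 10 submandibular acinar and all 13 duct markers were detected in every group. Parotid gland transcripts made up 15.99% of model 3, 6.50% of SJQYD 1 and 4.17% of control 2, and SJQYD 3 had 1.01 CPM of Xist against at least 162 CPM in the others. Dbp, an output gene of the circadian clock, stood at 136 to 235 CPM in the SJQYD libraries and at 0.469 to 17.99 CPM in the other 10. The member values are given below without the parotid-rich libraries and without SJQYD 3, and the part of the Dbp difference was not tested.

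Per length, the small subunits of complexes IV and I were the most abundant members. On the deposited FPKM scale (scaled to transcript length and library size), the median over the 15 libraries was highest for Cox8a (105.5 FPKM), Cox4i1 (96.3), Cox6b1 (90.04), Ndufa2 (85.8) and Cox6a1 (82.4). The median gene of complex I stood at 17.7 FPKM, of complex II at 12.1, of complex III at 41.2, of complex IV at 29.8 and of complex V at 34.7. Within complex I the levels ran from 0.771 FPKM for Ndufa4l2 to 85.8 for Ndufa2, and within complex V from 7.07 for Atp5g1 to 63.4 for Atp5e. The heme A and copper delivery genes were far lower on this scale, from 0.756 FPKM (Cox11) to 3.58 (Cox17). This ranking rests on the transcript lengths behind the deposited FPKM. In normalised counts, which are not scaled to length, Cox17 had a control mean of 26.9 CPM. Sdhd of complex II, at 14.9 FPKM, had 26.5 CPM.

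The comparison of model with control glands asks how untreated NOD/LTJ glands differ from those of ICR mice. Of 91 tested members, 5 were lower and 0 were higher in the model glands (edgeR quasi-likelihood test, Benjamini-Hochberg adjusted p under 0.05 over 18136 genes). Over all tested genes 2.5% were called lower and 2.57% higher, 5.07% in all. The 5 were Ndufs5 of complex I, Atp5g1 and Atp5pb of complex V, Cox6a1 of complex IV and the heme A synthase gene Cox15. The median member had a log2 fold change of -0.11, against 0.03 over all tested genes, and 65 of 91 members (71.4%) lay below 0, against 46.7% of all genes. At an unadjusted p under 0.05, 15 members were lower and 3 higher, against 10.3% and 11.6% of all genes. DESeq2 called 6 lower and 1 higher, against 3.85% and 4.92% of the genes it tested. Leaving out 1 library moved the member median between -0.20 (without control 2) and -0.05 (without control 5), and without the 3 parotid-rich libraries it was -0.20. Groups did not overlap for 4 members, all lower in model, where 2.71% of all genes were lower and 3.05% higher without overlap. These are bulk glands, so fewer cells of a type and less RNA per cell cannot be told apart. The 10 acinar markers include Mucl2, which alone took 15.5% to 53.8% of all counts, so their sum leans on that transcript. Their summed level was 489146 to 979076 CPM in control, 254188 to 544335 in model and 135344 to 582004 in SJQYD libraries. Their median was -0.37 in model against control, with 1 called, Bhlha15, a transcription factor of secretory cells, at -0.57. Of 13 duct markers edgeR and DESeq2 called 0, with 0 at an unadjusted p under 0.05 and a median of -0.70, and their summed level was 8729.8 to 24745 CPM in control, 5914 to 9936 in model and 3492 to 12452 in SJQYD libraries. Among 5 red cell markers, which summed to 73.9 to 290.2 CPM in control, 261 to 360.5 in model and 162 to 400.4 in SJQYD libraries, Hba-a2 was called at 1.69. The part of these cell types in the member values was not tested.

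The calls in this comparison depended on single libraries. The 5 lower calls became 8 without control 2 and 3 without control 3, control 5 or model 1. They became 2 without control 1, control 4, model 2, model 3 or model 5, and were 5 in number without model 4. The share of all genes called moved as well, from 5.07% to 9.71% without control 2 and 1.92% without model 2. Ndufs5 and Atp5g1 were called in all 10 of these fits.

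Between SJQYD-treated and control glands, 19 of 91 members were lower and 1 higher, where 5.9% of all tested genes were lower and 5.22% higher (11.1% in all). The lower members comprised 10 genes of complex I, 1 of complex II, 2 of complex III, 2 of complex IV and 4 of complex V. The median member stood at -0.22, against 0.04 for all genes. By complex the median was -0.18 for I, -0.25 for II, -0.09 for III, -0.27 for IV and -0.33 for V. Of the 91 members 69 lay below 0 (75.8%), against 46.7% of all genes, and 13 were lower without overlap of the groups, against 5.0% of all genes (5.07% higher). Duct markers had a median of -0.63 here, with 0 of 13 called by edgeR, 1 lower by DESeq2 and 2 lower at an unadjusted p under 0.05, and their part was not tested. These mice also differ from control in strain, and the same 5 control libraries serve both comparisons. The 19 lower calls became 11 without SJQYD 1 or control 1, 10 without SJQYD 2, 9 without control 5 and 24 without control 2. The share of all genes called moved from 11.1% to 6.67% without control 5 and 14.2% without control 2, and the member median to -0.11 and -0.27. Without SJQYD 3, 16 members were lower, with a median of -0.17, and without the parotid-rich libraries 19, with a median of -0.23.

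**Figure D1:**
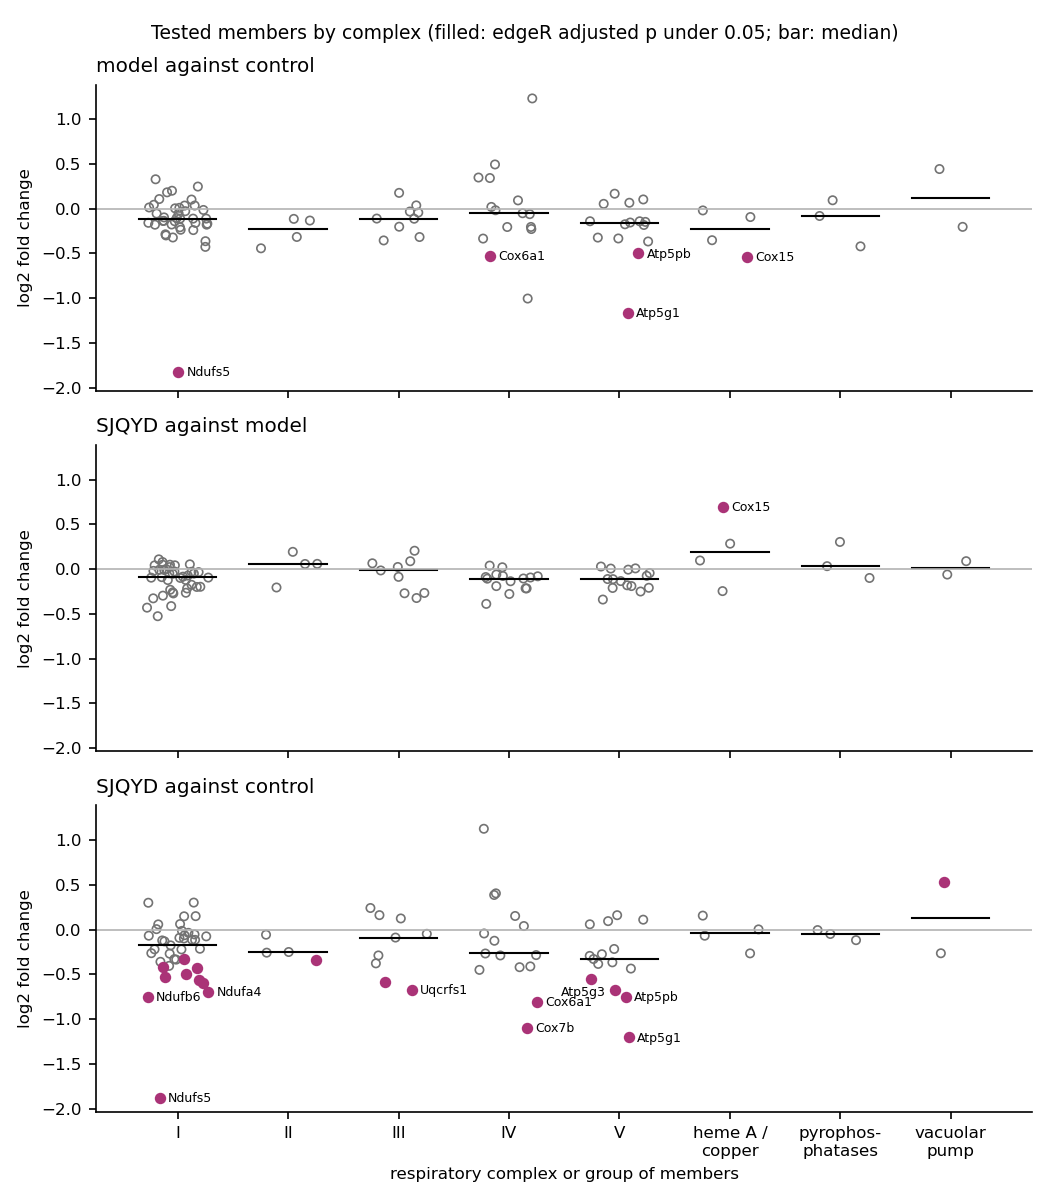
Log2 fold change of each tested member (points, scattered sideways at random) by complex in the 3 comparisons, with a bar at the median of each group of members. Filled points passed an adjusted p of 0.05: 5 in model against control, 1 in SJQYD against model and 20 in SJQYD against control.

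Between SJQYD and untreated NOD/LTJ glands, the comparison within 1 strain, 1 member was higher (Cox15) and 0 were lower, where 1.91% of all tested genes were higher and 0.838% lower (2.75% in all). The edgeR test gave 7 lower and 1 higher at an unadjusted p under 0.05, against 8.1% and 8.09% of all genes. DESeq2 called 2 lower and 1 higher, against 2.81% and 3.88% of the genes it tested. The median member stood at -0.08 and the median of all genes at -0.03, and 64 of 91 members lay below 0 (70.3%, against 53.2% of all genes). Groups did not overlap for Cox15, higher in SJQYD, and for Ndufb6 and Sdhc, lower in SJQYD. Over all genes 3.21% were higher and 2.29% lower without overlap. Without SJQYD 1 the member median was -0.01, without SJQYD 3 it was -0.06, and without the parotid-rich libraries it was -0.03, where the median of all genes was -0.03 too.

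The sign of the member median changed with the scaling of the libraries in both comparisons with control, while in SJQYD against model the median stayed below 0. The normalisation used here (TMM, which sets the scale by the bulk of genes and not by the most abundant ones) gave factors of 0.594 to 1.01 in control, 0.945 to 1.32 in model and 0.910 to 1.85 in SJQYD libraries. With total counts alone, the median of all genes moved to 0.52 in model against control and that of the members to 0.39, with 7 members higher and 1 lower, against 8.4% and 0.232% of all genes. In SJQYD against control the medians were then 0.63 for all genes and 0.36 for the members, with 21 members higher and 1 lower, against 25.2% and 0.551% of all genes. The FPKM values, which follow the total count, gave 6 higher and 1 lower in model against control and 18 higher and 1 lower in SJQYD against control (limma on log2(FPKM + 1)). Over all genes on that scale, 11.4% were higher and 0.338% lower in the first and 28.6% and 0.716% in the second. Relative to the median of all genes, the member median was lower by 0.15 and 0.26 with TMM in these 2 comparisons and by 0.13 and 0.27 with total counts. On log2(FPKM + 1), a scale that understates changes of low genes, it was higher by 0.05 in the first and lower by 0.05 in the second.

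**Figure D2:**
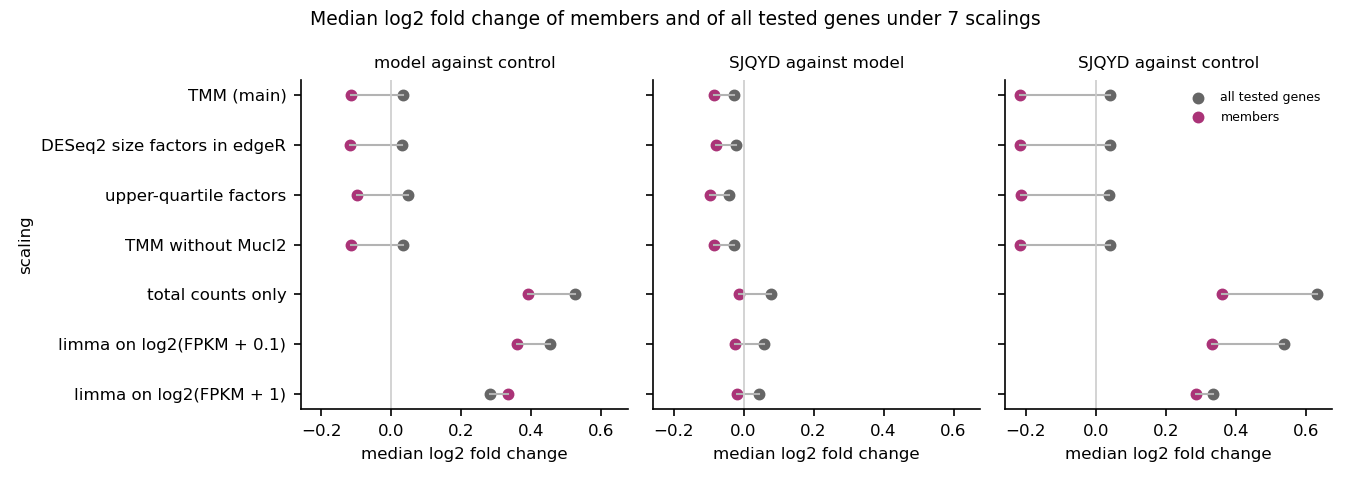
Median log2 fold change of the members (purple) and of all tested genes (grey) under 7 scalings (rows) in the 3 comparisons. With TMM the members lie at -0.11, -0.08 and -0.22, and with total counts both medians move to the right while the members stay to the left of all genes.

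Complex I held the member with the lowest log2 fold change in both comparisons with control. Ndufs5 (ENSMUSG00000028648, chromosome 4, 123712710 to 123718186, minus strand, GRCm38), an accessory subunit, had 41.4, 35.4, 39.8, 49.02 and 51.9 CPM in the 5 control libraries. The model libraries had 10.8, 15.3, 12.4, 11.3 and 11.53 CPM and the SJQYD libraries 10.2, 13.2, 9.82, 13.9 and 12.1 CPM. Every control library lay above every NOD/LTJ library, and the 2 NOD/LTJ groups overlapped. Ndufs5 stood at -1.83 ± 0.14 log2 units (SE; edgeR adjusted p = 7.92e-07) in model against control and -1.88 ± 0.14 (4.25e-07) in SJQYD against control. It was -0.05 ± 0.14 in SJQYD against model (adjusted p = 0.905).

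Ndufs5 has a near-identical processed pseudogene, BC002163 (GRCm38 chromosome 16, 42955631 to 42955949, plus strand), which matches its coding sequence at 99.4% over 319 bases. The stretch of both that holds the 2 differing bases is shown, from GENCODE M21 transcripts on GRCm38, because these are the bases at which the aligned coding sequences differ. Capitals mark the differences T81C and A105G, counted from the first base of the Ndufs5 coding sequence, with the gene's base first.
Ndufs5: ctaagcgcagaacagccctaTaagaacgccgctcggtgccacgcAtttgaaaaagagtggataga
BC002163: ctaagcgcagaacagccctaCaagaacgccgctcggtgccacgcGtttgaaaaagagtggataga

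The counts assigned to BC002163 ran opposite to those of Ndufs5. The pseudogene had 0.895, 0.810, 1.08, 0.807 and 0.967 CPM in control, 30.1, 26.1, 24.49, 27.7 and 26.7 CPM in model and 19.52, 22.8, 25.2, 22.4 and 26.8 CPM in SJQYD libraries. BC002163 took 2.09 ± 0.396% of the summed level of the pair in control, 68.8 ± 4.12% in model and 66.3 ± 4.13% in SJQYD libraries (SD, n = 5 per group). The sum of the pair was 44.4 ± 6.78 CPM in control, 39.3 ± 1.86 in model and 35.2 ± 3.38 in SJQYD. Its log2 fold change was -0.18 ± 0.11 (edgeR adjusted p = 0.358) in model against control and -0.34 ± 0.11 (0.0553) in SJQYD against control, so neither call held for the pair. How the submitters' counting placed reads that match both is not given in the sources used here, and the level of Ndufs5 alone is uncertain.

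The same check was made for all members. Pseudogene transcripts with at least 95% identity over at least 150 bases gave 39 copies in the count table for 21 members. One of these, the Atp5h copy Gm4953, had 0 counts. Protein-coding transcripts were not taken as copies. Atp5g1, described with complex V, was the other called member whose copy held over 5% of the pair. Ndufa12, an accessory subunit of complex I, had 10.03 ± 1.89 CPM in control against 20.3 ± 4.83 CPM for its copy. Summed with it, Ndufa12 stood at -0.48 ± 0.12 in SJQYD against control (edgeR adjusted p = 0.0156), against -0.33 (0.263) for the gene alone. Cox7a2l, which helps join complexes III and IV, was at -0.50 ± 0.15 when summed with its copy (0.0390), against -0.42 (0.0609) alone. Ndufa12 and Cox7a2l were singled out after their values were seen. With all copies summed, 2 members were lower in model against control and 20 in SJQYD against control.

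**Figure D3:**
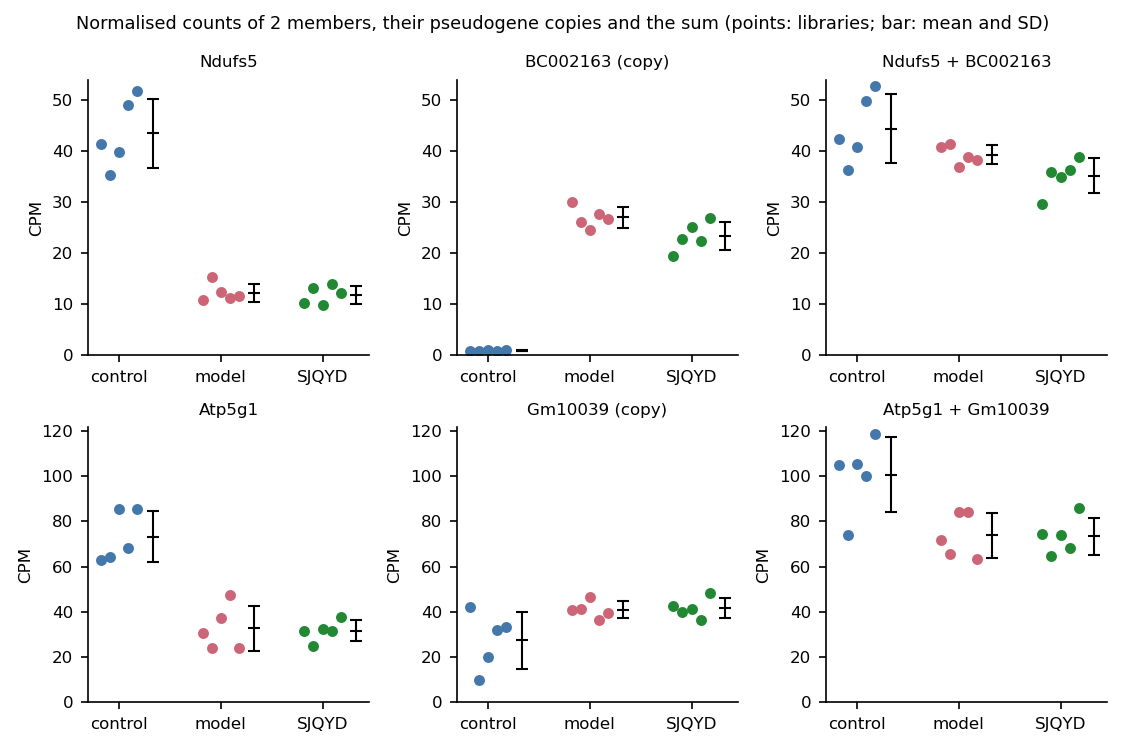
Normalised counts (CPM) of Ndufs5 with its copy BC002163 (top) and Atp5g1 with its copy Gm10039 (bottom), each library a point, with the mean and SD, and the sum of gene and copy on the right. Ndufs5 goes from a mean of 43.5 CPM in control to 12.3 CPM in model while BC002163 goes from 0.913 to 27.0 CPM, and their sum changes from 44.4 to 39.3 CPM.

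In complex I, 9 further members were lower in SJQYD than in control glands. Ndufb6, a membrane-arm subunit, had 28.49, 16.98, 23.1, 21.7 and 29.3 CPM in control, 19.03, 18.1, 18.3, 20.9 and 19.2 in model and 8.42, 13.9, 16.6, 15.8 and 16.3 in SJQYD libraries. Its log2 fold change was -0.75 ± 0.17 (edgeR adjusted p = 0.0111), and all 5 SJQYD libraries lay below all control and all model libraries, with SJQYD 1 the lowest. Ndufv3, part of the module that binds NADH, had 52.2, 42.2, 63.3, 47.4 and 44.6 CPM in control and 30.3, 26.6, 35.2, 36.2 and 37.1 CPM in SJQYD libraries, with no overlap. The model libraries, at 35.51 to 41.9 CPM, lay below all control libraries too. Ndufv3 stood at -0.59 ± 0.12 (0.00619) in SJQYD and at -0.36 ± 0.12 (0.0941) in model against control.

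Ndufb3, another membrane-arm subunit, separated SJQYD from control but not model from control. It had 39.3, 35.7, 37.1, 45.02 and 47.47 CPM in control, 39.9, 44.6, 32.9, 39.4 and 32.6 in model and 23.1, 27.1, 28.7, 29.9 and 33.6 in SJQYD libraries. Estimated log2 fold changes were -0.52 ± 0.12 (0.0123) in SJQYD against control, -0.41 ± 0.12 (0.0858) in SJQYD against model and -0.11 ± 0.12 (0.649) in model against control (edgeR adjusted p in brackets). Ndufa1, encoded on the X chromosome, was also lowest in SJQYD, with 41.6 ± 7.49, 42.6 ± 6.64 and 29.6 ± 5.09 CPM in control, model and SJQYD (SD, n = 5 per group). It stood at -0.49 (0.0447) in SJQYD against control and -0.53 (0.0732) against model. The first call was lost without SJQYD 1, 2 or 4 or control 1, 4 or 5. With total counts or FPKM, Ndufb3 and Ndufa1 turned to values between 0.02 and 0.07 in SJQYD against control.

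Ndufa4 had 65.96, 51.1, 53.2, 80.95 and 99.9 CPM in control and 42.2, 36.9, 51.6, 41.8 and 43.7 CPM in SJQYD libraries. Control 5 was the highest, and the groups overlapped between 51.1 and 51.6 CPM. Ndufa4 stood at -0.70 ± 0.18 (0.0221), a call lost without SJQYD 1 or 2 or control 4 or 5. Further called members of complex I lie outside the rule for named genes, and 3 of them are given because they were called. They were Ndufc2 at -0.57, Ndufb8 at -0.42 and Ndufb10 at -0.33. Neither core subunit of the NADH-binding module that was followed by name was called in any comparison. Ndufv1, which binds NADH, had 45.6 ± 11.1, 40.3 ± 3.62 and 43.48 ± 5.22 CPM in the 3 groups, and the iron-sulfur subunit Ndufs1 had 22.3 ± 3.01, 20.3 ± 1.05 and 20.9 ± 2.18 CPM (SD, n = 5 per group). Ndufa2, the most abundant member of complex I per length, stood at 0.25 ± 0.13 in model and 0.30 ± 0.13 in SJQYD against control (edgeR adjusted p = 0.296 and 0.159).

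Complex II, the succinate dehydrogenase shared with the TCA cycle, has no subunit from the mitochondrial genome. All 4 of its genes lay below 0 in both comparisons with control, and 1 was called. Sdhc, a membrane anchor, had 44.3, 32.9, 45.2, 40.4 and 45.9 CPM in control, 35.4, 36.9, 40.7, 39.8 and 37.6 in model and 31.1, 29.1, 34.9, 34.9997 and 35.1 in SJQYD libraries. SJQYD lay wholly below model and overlapped control, where control 2 was low. Its log2 fold change was -0.34 ± 0.10 in SJQYD against control (edgeR adjusted p = 0.0426) and -0.20 ± 0.10 against model (0.343). The call was lost in 9 of 10 fits without 1 library, control 2 being the exception, and the sign turned with total counts (0.27) and FPKM (0.20 to 0.22). Sdha, the flavoprotein that oxidises succinate, stood at -0.32 and Sdhd, the other anchor, at -0.44 in model against control (0.145 and 0.109). Sdhb, the iron-sulfur subunit, was at -0.11 in model and -0.06 in SJQYD against control.

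Complex III, which passes electrons from ubiquinol to cytochrome c, had 2 of 9 genes lower in SJQYD than in control and 0 called in either other comparison, where 2 and 1 were lower at an unadjusted p under 0.05. Uqcrfs1 (ENSMUSG00000038462, chromosome 13, 30540308 to 30545362, minus strand, GRCm38), the Rieske iron-sulfur protein, had 54.99, 40.7, 48.97, 50.501 and 69.3 CPM in control, 40.4, 39.7, 41.05, 50.53 and 35.1 in model and 31.1, 29.7, 32.9, 36.2 and 35.46 in SJQYD libraries. SJQYD lay below every control library, and model overlapped both. Uqcrfs1 stood at -0.68 ± 0.13 (edgeR adjusted p = 0.00444) in SJQYD against control, -0.36 ± 0.13 (0.122) in model against control and -0.32 ± 0.13 (0.22) in SJQYD against model. Uqcrc2, a core protein, had 42.8, 32.9, 37.8, 41.9 and 51.3 CPM in control and 21.3, 26.3, 28.05, 28.96 and 33.03 CPM in SJQYD libraries, overlapping at control 2 and SJQYD 5. Its log2 fold change was -0.59 ± 0.13 (0.0104). The other core protein, Uqcrc1, stood at -0.38 (0.0827). Cyc1, cytochrome c1, pointed the other way without a call, with 65.8 ± 5.54, 63.8 ± 4.66 and 73.6 ± 7.69 CPM in control, model and SJQYD (SD, n = 5 per group). Uqcr10, the most abundant member of complex III per length, had 51.3 ± 5.91, 50.2 ± 4.53 and 49.7 ± 3.07 CPM.

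In complex IV, cytochrome c oxidase, Cox6a1 was lower in both comparisons with control. Cox6a1 (ENSMUSG00000041697, chromosome 5, 115345642 to 115348981, minus strand, GRCm38) is the form of subunit 6a found outside heart and muscle. It had 92.7, 66.8, 92.4, 92.6 and 118 CPM in control, 62.3, 64.9, 58.97, 80.2 and 54.998 in model and 52.51, 43.6, 58.3, 54.48 and 56.2 in SJQYD libraries. SJQYD lay below every control library, while model overlapped both. Cox6a1 stood at -0.53 ± 0.14 (edgeR adjusted p = 0.0395) in model and -0.80 ± 0.14 (0.00218) in SJQYD against control. The first call was lost in 8 of 10 fits without 1 library, all but control 2 and model 4, and the second in 0 of 10. Cox6a2, the muscle form, had no count in control and reached at most 0.124 CPM in any library.

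Cox7b (ENSMUSG00000031231, chromosome X, 106015700 to 106022450, plus strand, GRCm38), a small subunit encoded on the X chromosome, varied widely between control mice. The control libraries had 101, 62.6, 238, 140.1 and 214 CPM, the model libraries 73.8, 74.1, 63.4, 88.6 and 76.9 CPM and the SJQYD libraries 48.3, 75.6, 71.4, 83.9 and 73.96 CPM. Control 2 lay among the NOD/LTJ libraries and the other 4 controls above them all. The log2 fold change was -1.004 ± 0.28 (edgeR adjusted p = 0.0512) in model and -1.10 ± 0.28 (0.0214) in SJQYD against control, the latter lost without SJQYD 1, control 3 or control 5. Cox5a and Cox4i1, nuclear subunits that join early in assembly, were not called, Cox5a standing at -0.45 ± 0.19 (0.139) in SJQYD against control. Cox4i1 had 178 to 239 CPM in control, 152 to 223 in model and 147 to 176 in SJQYD libraries, SJQYD lying below every control library at -0.27 ± 0.12 (0.157). Cox4i2, its lowly expressed counterpart, stayed at or below 0.701 CPM in every library.

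**Figure D4:**
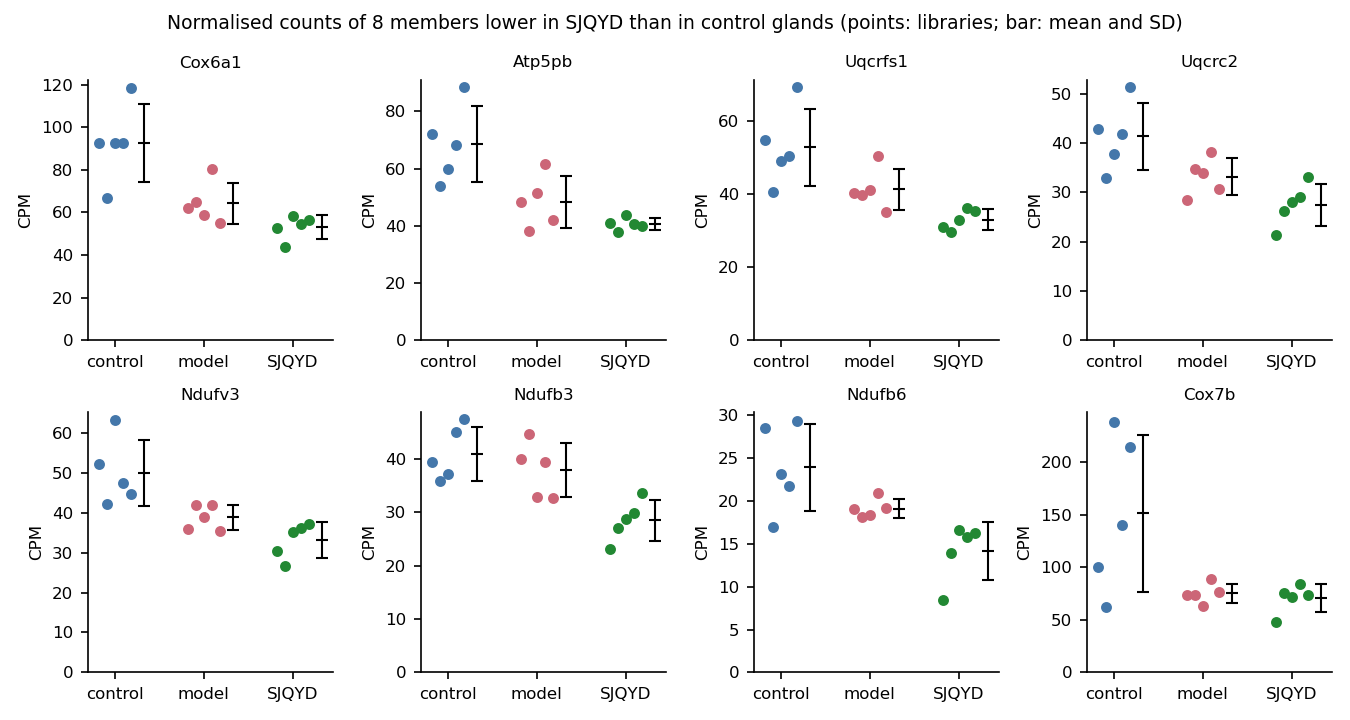
Normalised counts (CPM) of 8 members called lower in SJQYD than in control glands, each library a point, with the mean and SD. SJQYD libraries lie below all control libraries for Cox6a1, Atp5pb, Uqcrfs1, Ndufv3, Ndufb3 and Ndufb6, and overlap them for Uqcrc2 and Cox7b, where control 2 is low.

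Tissue-specific forms of complex IV were high in 2 libraries. Cox8b (ENSMUSG00000025488, chromosome 7, 140898945 to 140900446, minus strand, GRCm38), the form of subunit 8 found in heart, skeletal muscle and brown fat, had 1.57, 0.774, 1.503, 1.48 and 2.65 CPM in control, 2.27, 12.4, 2.10, 0.786 and 1.14 in model and 1.12, 3.45, 1.74, 1.93 and 9.22 in SJQYD libraries. Model 2 and SJQYD 5 stood above the other 13 libraries. The same libraries were highest for Cox7a1, the heart and muscle form of subunit 7a, with 8.70 CPM in model 2 and 7.28 CPM in SJQYD 5 against 2.05 to 5.32 CPM elsewhere in the set. Fat cell genes moved with them. Ucp1, the uncoupling protein of brown fat, stood at 19.2 CPM in model 2 and 18.05 CPM in SJQYD 5, and Adipoq, the fat cell hormone adiponectin, at 20.8 and 11.2 CPM. Over 11 fat cell markers, the summed level ran from 13.9 to 26.5 CPM in control, 18.96 to 322 CPM in model and 17.6 to 218 CPM in SJQYD libraries, with Lep and Elovl3 at 0 in all control libraries. The 14 skeletal muscle markers found summed to 14.2 to 25.2 CPM in control, 23.8 to 40.05 in model and 23.96 to 41.3 in SJQYD libraries. Of 10 tested, 3 (Tnnt3, Ryr1 and Eno3) were higher in both NOD/LTJ groups, where 2.57% (model) and 5.22% (SJQYD) of all genes were. Tnnt3 was at 0 in control, and Myh7 at 0 in control and model. Acta1, skeletal actin, stood at 0.0730 CPM in model 2 and 0.157 in SJQYD 5, near 0. Ckm, another marker of that list, stood at 2.41 CPM in model 2, within the control range of 2.16 to 3.17 CPM. In SJQYD 5 it was at 3.49 CPM, its highest value in any library. The part of fat or muscle tissue in the Cox8b and Cox7a1 values was not tested.

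No group difference was called for Cox8b, at 1.23 ± 0.76 in model and 1.13 ± 0.76 in SJQYD against control (edgeR adjusted p = 0.368 and 0.378). On the FPKM scale, Cox8b made up 3.09 ± 0.894% of the summed Cox8a and Cox8b level in control, 7.55 ± 8.81% in model and 7.61 ± 6.09% in SJQYD libraries (SD, n = 5 per group). The exact permutation test, two-sided and adjusted over 9 share comparisons, gave p = 0.464 for model and 0.196 for SJQYD against control. The common forms Cox8a and Cox7a2 stood at -0.28 (0.105) and -0.41 (0.0939) in SJQYD against control, by edgeR.

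Complex V had 2 of 15 genes lower in model and 4 lower in SJQYD than in control glands. Atp5pb (ENSMUSG00000000563, chromosome 3, 105942698 to 105960099, minus strand, GRCm38), the b subunit of the stalk that holds the catalytic head still, had 72.002, 53.8, 59.7, 68.3 and 88.4 CPM in control, 48.4, 38.2, 51.6, 61.7 and 42.01 in model and 40.9, 37.9, 43.9, 40.7 and 40.1 in SJQYD libraries. SJQYD lay below all control libraries within a narrow range, and model overlapped both. Atp5pb stood at -0.50 ± 0.14 (edgeR adjusted p = 0.0482) in model and -0.75 ± 0.14 (0.00342) in SJQYD against control. The first call was lost in 8 of 10 fits without 1 library, all but control 2 and model 4. Atp5pb shares 337 exon bases with Wdr77 on the opposite strand. Wdr77 stood at 15.8 ± 2.07 CPM in control, 17.9 ± 5.44 in model and 23.5 ± 5.13 in SJQYD (SD, n = 5 per group).

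The rotating ring of ATP synthase is built from c subunits, and 3 nuclear genes, Atp5g1, Atp5g2 and Atp5g3, encode the same mature c protein behind different import sequences. Atp5g1 (ENSMUSG00000006057, chromosome 11, 96068852 to 96075670, minus strand, GRCm38) had 62.9, 64.1, 85.3, 68.1 and 85.4 CPM in control, 30.7, 24.2, 37.3, 47.6 and 23.9 in model and 31.7, 24.98, 32.6, 31.8 and 37.6 in SJQYD libraries. All control libraries lay above all NOD/LTJ libraries. Atp5g1 stood at -1.16 ± 0.18 (edgeR adjusted p = 0.0021) in model and -1.20 ± 0.18 (0.000662) in SJQYD against control. Atp5g3 stood at -0.67 ± 0.18 (0.0252) in SJQYD against control, a call lost without SJQYD 2, SJQYD 4, control 1 or control 5, and Atp5g2 at -0.38 ± 0.15 (0.101).

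Atp5g1 also has a near-identical processed pseudogene, Gm10039 (GRCm38 chromosome 11, 100361716 to 100362126, minus strand), which matches at 99.8% over 411 bases. The stretch with the single difference, G385A counted from the first base of the Atp5g1 coding sequence and set in capitals, is shown from GENCODE M21 transcripts because it is where the aligned coding sequences differ.
Atp5g1: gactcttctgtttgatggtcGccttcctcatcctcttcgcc
Gm10039: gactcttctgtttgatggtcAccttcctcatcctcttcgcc

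Gm10039 had 42.1, 9.80, 19.95, 31.8 and 33.4 CPM in control, 41.03, 41.3, 46.8, 36.6 and 39.52 in model and 42.6, 39.7, 41.3, 36.3 and 48.4 in SJQYD libraries. Control 2 was lowest, and control 1 lay within the NOD/LTJ range. The sum of the pair was 101 ± 16.49 CPM in control, 73.8 ± 9.93 in model and 73.4 ± 8.14 in SJQYD (SD, n = 5 per group). Its log2 fold change was -0.45 ± 0.13 in both comparisons, with an edgeR adjusted p of 0.0583 in model and 0.0338 in SJQYD against control. By FPKM, Atp5g1 made up 15.4 ± 3.39% of the summed level of the c subunit genes in control, 8.60 ± 1.23% in model and 10.2 ± 1.15% in SJQYD libraries. The lowest control library had 12.4% and the highest NOD/LTJ library 11.9%. The difference was -6.83 percentage points for model and -5.28 for SJQYD against control (two-sided exact permutation test, p = 0.00794 for each, the smallest that 5 against 5 allows, and 0.0357 adjusted over 9 share comparisons). For SJQYD against model it was 1.56 points (exact permutation p = 0.0794, adjusted 0.196). These shares rest on the transcript lengths behind the deposited FPKM. In normalised counts, not scaled to length, the control means were 73.2 CPM for Atp5g1, 51.1 for Atp5g2 and 117 for Atp5g3. The split of reads with Gm10039 bears on the shares as well.

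In the catalytic head of ATP synthase, Atp5a1, the alpha subunit, had 206, 151, 178, 187 and 288 CPM in control and 140.4, 124, 139, 137 and 147 CPM in SJQYD libraries, the groups not overlapping. It stood at -0.56 ± 0.15 (edgeR adjusted p = 0.025), a call lost without SJQYD 2, control 1 or control 5, and turned to values between 0.03 and 0.07 with total counts or FPKM. Atp5b, the catalytic beta subunit, stood at -0.44 ± 0.16 (0.0809) and was not called. Atp5e, the epsilon subunit and the most abundant member of complex V per length, had 140.2 ± 23.51, 145 ± 11.6 and 146 ± 17.98 CPM in control, model and SJQYD (SD, n = 5 per group).

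Cox15 was the member called in the comparison within NOD/LTJ mice. Cox15 (ENSMUSG00000040018, chromosome 19, 43733254 to 43753000, minus strand, GRCm38) makes heme A, the heme found only in cytochrome oxidases. It had 12.9, 12.8, 11.8, 15.995 and 11.8 CPM in control, 10.1, 7.94, 7.64, 11.2 and 8.13 in model and 16.7, 13.9, 15.8, 14.48 and 12.1 in SJQYD libraries. Every model library lay below every control and every SJQYD library, and control and SJQYD overlapped. The log2 fold change was -0.54 ± 0.13 (edgeR adjusted p = 0.0308) in model against control, 0.69 ± 0.13 (0.00979) in SJQYD against model and 0.16 ± 0.13 (0.503) in SJQYD against control. The first call was lost without control 1, control 4, model 2, model 3 or model 5. The second held in all 10 fits without 1 library and was lost with total counts, with FPKM and without the 3 parotid-rich libraries, its values running from 0.54 to 0.84 over all alternatives.

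Cox15 shares 444 exon bases with Entpd7, a nucleoside triphosphate phosphatase gene on the opposite strand. Entpd7 had 5.07, 4.45, 4.71, 7.96 and 3.33 CPM in control, 4.77, 3.75, 3.28, 5.73 and 3.07 in model and 11.3, 9.19, 10.2, 10.1 and 5.43 in SJQYD libraries, and stood at 1.17 ± 0.24 in SJQYD against model (edgeR adjusted p = 0.0146). Control 4 was the highest control library and SJQYD 5 the lowest SJQYD library for Entpd7, and SJQYD 5 was also the lowest for Cox15. The libraries mark strand, but whether the counting used it is not given in the sources used here, so reads over the shared bases cannot be told apart. Exons of 35 members overlap those of another gene, called members included. Uqcrc2 shares 504 bases with Pdzd9, Ndufb6 257 with Smim27 and Atp5a1 129 with Haus1, each on the opposite strand. Ndufb8 shares 134 bases with Gm20538 on the same strand. The part of such reads in the member values was not tested. Cox17, the copper chaperone in the group of Cox15, had 27.3, 29.1, 24.02, 25.4 and 26.8 CPM in model and 20.005, 21.03, 22.4, 23.1 and 25.3 CPM in SJQYD libraries. Its log2 fold change was -0.25 ± 0.10 (edgeR adjusted p = 0.207), and it shares 257 exon bases with Gm21987 on the same strand.

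**Figure D5:**
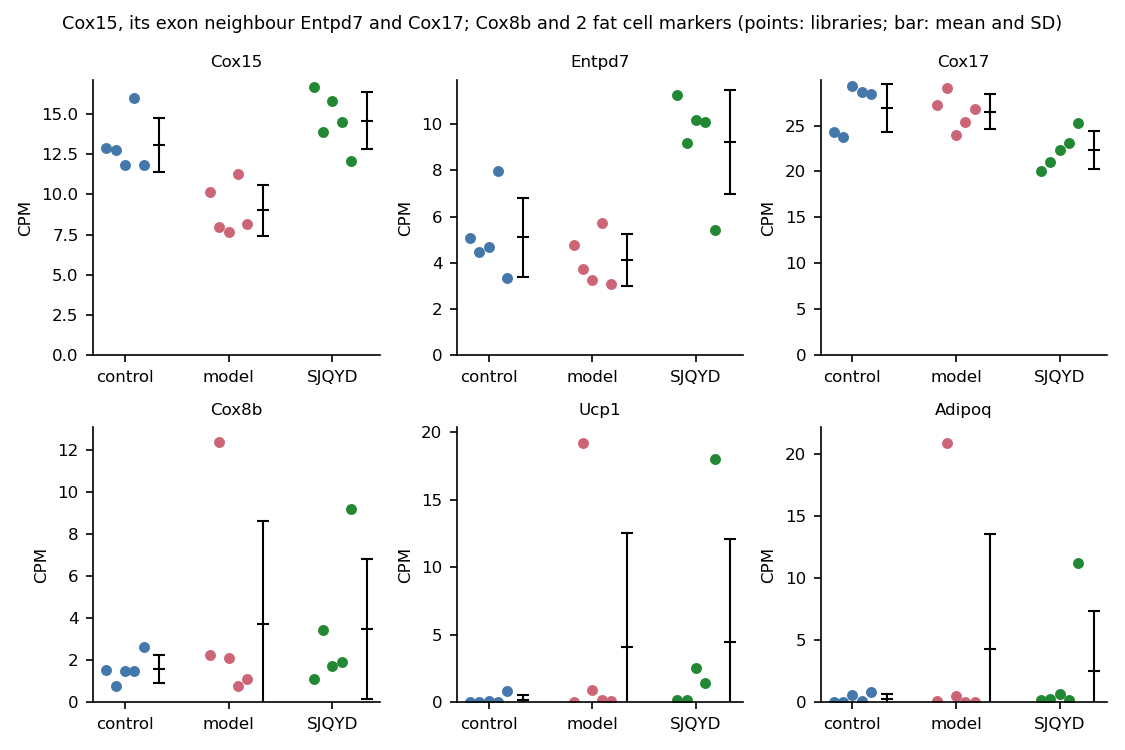
Normalised counts (CPM) of Cox15, of Entpd7, which overlaps it, and of Cox17 (top), and of Cox8b and the fat cell genes Ucp1 and Adipoq (bottom), each library a point, with the mean and SD (bars cut at 0). Cox15 lies at 7.64 to 11.2 CPM in model and 12.1 to 16.7 CPM in SJQYD libraries, and model 2 and SJQYD 5 stand above the rest for Cox8b, Ucp1 and Adipoq.

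Outside the respiratory complexes, Tcirg1, a vacuolar proton pump subunit known from osteoclasts, was the member higher in SJQYD than in control glands, named here as its single higher call. It had 39.8, 52.2, 36.4, 33.9 and 29.9 CPM in control, 53.47, 62.4, 54.1, 45.48 and 45.7 in model and 69.1, 54.9, 51.99, 50.01 and 51.8 in SJQYD libraries, overlapping at control 2. It stood at 0.53 ± 0.14 (edgeR adjusted p = 0.0268) in SJQYD and 0.44 ± 0.14 (0.0851) in model against control. The call was lost without SJQYD 1, SJQYD 2, control 3, control 4 or control 5. Atp6ap1, an accessory subunit of that pump, was at -0.26 (0.165). T and B cell markers, 10 in number, summed to 2.59 to 98.8 CPM in control, 51.9 to 149 in model and 14.9 to 93.2 in SJQYD libraries, and their part in the Tcirg1 value was not tested. Ppa1, the cytosolic pyrophosphatase, stood at -0.42 and -0.12 in model and SJQYD against control (0.33 and 0.809). Atp4a, the gastric pump, had 0 counts in all control libraries and at most 10 in any library.

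Genes around the pathway were read from lists of known function. Over all tested genes, edgeR called 2.5% lower and 2.57% higher in model against control. In SJQYD against control it called 5.9% lower and 5.22% higher, and in SJQYD against model 0.838% lower and 1.91% higher. These shares stand beside all list counts below. Of 17 TCA cycle enzymes, 1 was lower in model and 3 in SJQYD against control by edgeR (3 and 4 by DESeq2). Higher ones numbered 0 in both, also at an unadjusted p under 0.05. In SJQYD against model, edgeR called 0, while DESeq2 called 1 higher and 0 lower, against 3.88% and 2.81% of the genes it tested. At an unadjusted p under 0.05, 3 were higher and 0 lower there, against 8.09% and 8.1% of all genes. Suclg2, the GTP-forming succinyl-CoA synthetase subunit, stood at -1.28 ± 0.12 in model and -0.88 ± 0.12 in SJQYD against control, and citrate synthase Cs and malate dehydrogenase Mdh2 at -0.46 ± 0.12 and -0.45 ± 0.13 in SJQYD. The list medians were -0.20 and -0.20 in model and SJQYD against control, against 0.03 and 0.04 over all genes. In SJQYD against model the list median was -0.01, against -0.03. Of 39 tested assembly factors of the respiratory chain, 4 were lower in model against control and 3 in SJQYD against control, with 0 higher in both. At an unadjusted p under 0.05, 7 were lower and 2 higher in model against control, where all genes gave 10.3% and 11.6%. In SJQYD against control 4 were lower and 3 higher, where 2402 and 2426 of all 18136 genes were. Lyrm7, which helps insert the Rieske protein Uqcrfs1 into complex III, stood at -2.57 ± 0.40 and -1.93 ± 0.39. Uqcc1, another complex III factor, was at -0.43 ± 0.12 and -0.57 ± 0.12, and Coa3, a complex IV factor, at -0.34 ± 0.08 and -0.30 ± 0.08. Within NOD/LTJ mice 2 of the 39 were higher with SJQYD, the complex I factors Foxred1 at 0.99 ± 0.14 and Ndufaf4 at 0.54 ± 0.13. Foxred1 had been lower in model than in control, at -0.78 ± 0.14. The list medians were -0.04 and 0.06 in model and SJQYD against control and 0.04 in SJQYD against model.

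Of 15 regulators of mitochondrial biogenesis, edgeR and DESeq2 called 0 lower in any comparison (2, 0 and 1 at an unadjusted p under 0.05 in the order model to control, SJQYD to model, SJQYD to control). Higher ones in that order numbered 0, 1 and 2 by edgeR and 1, 1 and 2 by DESeq2. At an unadjusted p under 0.05 they numbered 2, 1 and 3. Pprc1, a coactivator of the PGC-1 family, was higher in SJQYD than in model (0.87 ± 0.16) and control (0.72 ± 0.16). Its relative Ppargc1b stood at 1.37 ± 0.39 in SJQYD against control, and Ppargc1a at 0.22 ± 0.19 with no call. The 13 protein genes of the mitochondrial genome had 0 edgeR calls in each comparison and list medians of -0.06, -0.32 and -0.42 in the same order. At an unadjusted p under 0.05, 0, 1 and 4 were lower, and DESeq2 called 2 lower in SJQYD against control. Their summed level overlapped between groups, at 10199 to 18636 CPM in control, 10799.6 to 18916 in model and 11352 to 18896 in SJQYD libraries. Among 21 electron carriers, quinone synthesis and ATP export genes, Coq6 was higher (0.46 ± 0.13) and Slc25a5, the ADP/ATP exchanger, lower (-0.76 ± 0.20) in SJQYD against control, with 0 edgeR calls in the other comparisons, where DESeq2 called 1 lower in model against control. All genes of these lists named here were called in the comparison given unless stated otherwise, and were chosen after their values were seen.

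The promoters of the members were searched for the motifs of 2 factors known to regulate many of these genes, the nuclear respiratory factor Nrf1 and the ETS factor Gabpa. RefSeq promoters (GRCm38.p6, 250 bases before to 50 after the start) were matched for 76 of 95 members, giving 83 promoters. The match was by Ensembl identifier or, failing that, by symbol. The full Nrf1 palindrome, set in capitals in the sequences shown, was found in 5 of the 83 (6.02%), against 0.971% of 32851 promoters. Its inner part GCATGCGC, which overlaps it and was sought on both strands, was in 12.05% against 2.71%. The ETS motif CCGGAAG, on either strand, was in 21.7% against 8.86%. Windows of 50 bases are shown for Cox6a1, lower in both comparisons with control, and for Atp5k and Ndufa11, which were not called, as examples of the motif in members that passed the test and members that did not, each on the strand of its gene.
Cox6a1 (chr5:115349091-115349140, minus): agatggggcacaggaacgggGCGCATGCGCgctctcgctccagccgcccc
Atp5k (chr5:108434420-108434469, minus): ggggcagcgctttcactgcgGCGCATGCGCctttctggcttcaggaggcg
Ndufa11 (chr17:56717682-56717731, plus): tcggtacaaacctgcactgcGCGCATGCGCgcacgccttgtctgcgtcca
The palindrome starts 162, 50 and 60 bases before the RefSeq transcript start in these 3 promoters. Such a match describes the sequence only.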

How the data were processed

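Poly(A) RNA of 15 submandibular glands was sequenced from strand-marked libraries with molecular identifiers, per the labels' protocols. The authors deposited raw counts per gene, and FPKM values with KEGG annotation, for 5 libraries per group. Per the submitters' processing notes, cutadapt 1.9, UMI-tools, HISAT2 2.0.4, StringTie 1.3.4d, DESeq2 and edgeR were used, with no roles given. The notes name the build mm9, but 28337 of 32385 genes (87.5%) have the coordinates of GENCODE M21 on GRCm38, which is used for positions. A count of 4 occurs 14040 times in the count table, against 8483 times for 3 and 4460 for 5, so the lowest counts may not be plain read tallies.

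Counts were tested with edgeR 4.0.16 (quasi-likelihood, all 3 groups in 1 fit, TMM, filterByExpr, 18136 genes), and p-values were adjusted by Benjamini-Hochberg over all of them. CPM are TMM-normalised, ± after a log2 fold change is its standard error, and the test was checked on simulated data. Shares of paralogs used FPKM and exact permutation tests. Alternatives were DESeq2 1.42.0, limma 3.58.1 on log2(FPKM + 1) and log2(FPKM + 0.1) (genes of at least 0.5 FPKM in 5 libraries), other scalings and filters, and leaving out libraries. Summing members with their copies was added after seeing the data. Members and lists were chosen with earlier results of these data known. Named members were the called ones (up to 12 per comparison, by p), the 2 of each complex with the smallest p, the most abundant of each complex, and fixed core and paralogous subunits. Libraries within a group are taken as separate mice. Where nothing says so, p-values measure only the spread between these samples. Counting error alone sets the stated limits for counts of 0. The values of 1 called member are not reported here.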

Additional observations from a re-analysis of the deposited data

Results flagged for a closer look

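Among 117 groups of 5 libraries examined for named members, 5 had a single library far from the other 4. Chance gives about 1 in 20, so the number found is not above what chance gives. Cox8b stood at 12.4 CPM in model 2, against 0.786 to 2.27 CPM in the other model libraries, and at 9.22 CPM in SJQYD 5, against 1.12 to 3.45 CPM. Ucp1, Adipoq and Cox7a1 were highest in the same 2 libraries. Control 5 was far above the other controls for Cox4i1, with 239 CPM against 178 to 195 CPM, and for Sdhd, with 39.2 CPM against 21.1 to 25.5 CPM. That library also had the highest member median among controls, at 0.24 (log2) above the control mean. Cox15 stood at 15.995 CPM in control 4, against 11.8 to 12.9 CPM in the other controls, and Entpd7 was highest there too, at 7.96 CPM.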

How the results depend on the processing

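In model against control, 5 members were lower and 0 higher, where 920 of 18136 genes were called in either direction. They became 6 and 1 with DESeq2 and without the 3 parotid-rich libraries, where 1790 and 1507 genes were called. They became 2 lower and 0 higher without a filter on low counts, with only the 2 groups compared, or with members summed with their copies. Here 665 of 32479, 466 of 16908 and 908 of 18112 genes were called. With total counts, log2(FPKM + 0.1) and log2(FPKM + 1) there were 7, 11 and 6 higher and 1 lower, and the member median was 0.39, 0.36 and 0.33. The median of all genes was then 0.52, 0.45 and 0.28, and 1565 of 18136, 1999 of 12436 and 1464 of 12436 genes were called. In SJQYD against control the same 3 settings gave 21, 20 and 18 higher and 1 lower, with medians of 0.36, 0.33 and 0.29. Medians of all genes were 0.63, 0.54 and 0.33 there, and 4679 of 18136, 4065 of 12436 and 3643 of 12436 genes were called. The 1 lower call under these settings was Ndufs5. In SJQYD against model, DESeq2 called 2 lower, and the 1 higher call became 0 with these 3 settings and without the parotid-rich libraries. Total counts and FPKM share a scaling that follows the most abundant genes, and the cause was not tested for the other settings. DESeq2 size factors, upper-quartile factors, TMM without Mucl2 and a minimum of 1 CPM in 5 libraries kept each count within 1.5 times.

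Leaving out 1 library gave 2 to 8 lower and 0 to 1 higher members in model against control, 0 to 1 lower in SJQYD against model, and 9 to 24 lower and 0 to 1 higher in SJQYD against control. Over all genes, 354 to 1799, 333 to 500 and 1240 to 2626 were called in these fits. With total counts, Atp5pb turned to 0.0067 in model against control and Ndufv3 to 0.0040 in SJQYD against control. In the latter comparison, log2(FPKM + 0.1), log2(FPKM + 1) and total counts gave 0.0591, 0.0581 and 0.0689 for Ndufa1, 0.0248, 0.0238 and 0.0347 for Ndufb3, 0.22, 0.20 and 0.27 for Sdhc, and 0.0268, 0.0265 and 0.0683 for Atp5a1.

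Library numbers are shared between groups, but deviations of same-numbered libraries correlated at -0.23 to 0.16, and 4 of 15 libraries matched best with their own number, so the numbers give no pairing. A replicate block gave 4 lower and 1 higher in model against control, 1 higher in SJQYD against model, and 15 lower and 1 higher in SJQYD against control. It called 896, 401 and 1799 of all 18136 genes in these comparisons. The planned comparison of protein sequences was not run. Depth limits the low members, 4 of which had too few counts to be tested.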
